A study of Mus musculus with 56 samples.

Results

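Ccl17, Ccl22 and Ccl24, 3 chemokine genes linked to type 2 immunity, were taken by gene name from both deposited tables, and all 3 were found in each (3 of 60601 genes in all). They were followed in monocytes and macrophages sorted out of 4 injured tissues: heart (after myocardial infarction), bone (a cranial defect), muscle (a volumetric muscle loss defect) and skin (a full-thickness biopsy punch) of 10-week-old mice, with 1 injury per mouse. Depleted libraries came from Foxp3(DTR/GFP) (FDG) mice, in which the diphtheria toxin receptor is made from the Foxp3 locus, so that toxin removes regulatory T cells (Tregs). Control libraries came from wild-type C57BL/6J mice. Mice of both arms received 20 ng/g diphtheria toxin from before the injury until 1 week after it, so genotype and depletion cannot be told apart. Each arm has 3 libraries of heart and 3 of muscle at each of days 4 and 7, and 4 of skin at those days; for bone the labels give 5 libraries per arm at day 7 and 3 at day 10, whereas the series text gives days 4 and 7 for all tissues, and the labels were followed. Whether libraries of a group came from different mice is not in the labels, so the p-values speak of the spread between libraries.

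CCL17 and CCL22 are ligands of the same receptor, CCR4, which is carried by type 2 helper T cells, Tregs and skin-homing T cells. CCL24 is an eotaxin and acts through CCR3, the main chemokine receptor of eosinophils. Macrophages and dendritic cells are known sources of these chemokines, and IL-4 and IL-13, acting through the IL-4 receptor and the transcription factor STAT6, are known inducers of them. Mature migratory dendritic cells, which carry CCR7, are a particularly rich source of CCL22.

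Ccl22 (ENSMUSG00000031779, chr8:94745590-94751699, plus strand) and Ccl17 (ENSMUSG00000031780, chr8:94810453-94812036, plus strand) are neighbours in GRCm38, with a gap of 58753 bases that holds Cx3cl1, another chemokine gene, and the pseudogene Gnb1-ps3. Ccl24 (ENSMUSG00000004814, chr5:135569937-135573049, minus strand) lies on another chromosome. No other annotated gene overlaps any of the 3. The stretches of promoter before the annotated starts of these 2 neighbours, Ccl17 and Ccl22, are shown as a description. Whether they bear on the levels of the genes was not tested. The stretches are RefSeq sequence in GRCm38.p6, 5′ to 3′ on the plus strand. Capitals mark matches to TTC and GAA with 4 bases of any kind between them, the spacing preferred by STAT6. They also mark matches with 3 bases between them, the spacing of other STAT factors.
Ccl17, chr8:94810203-94810452: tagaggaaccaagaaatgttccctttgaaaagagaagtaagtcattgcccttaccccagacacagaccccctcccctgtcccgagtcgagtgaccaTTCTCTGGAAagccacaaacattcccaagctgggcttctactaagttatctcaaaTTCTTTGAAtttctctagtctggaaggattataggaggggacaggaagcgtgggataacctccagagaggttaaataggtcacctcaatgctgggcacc
Ccl22, chr8:94745434-94745589: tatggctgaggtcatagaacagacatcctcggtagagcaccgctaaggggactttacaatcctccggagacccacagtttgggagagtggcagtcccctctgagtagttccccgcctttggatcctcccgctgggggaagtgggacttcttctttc
The Ccl17 stretch of 250 bases held TTCTCTGGAA at positions -154 to -145 from the start and TTCTTTGAA at -99 to -91, besides GAGGAA, a PU.1 core, at -248 to -243. Searched on both strands, the motif with 4 bases between is in 5.85% of 32851 promoters of that length, that with 3 bases between in 7.02% and GAGGAA in 23.3%. Neither TATAAA (12.4% of promoters) nor a kappaB variant, GGG and TTTCC with 2 bases of any kind between them (1.41%), was in the Ccl17 stretch. None of these 5 motifs was in the 156 bases shown for Ccl22, a shorter stretch than the 250 bases of the shares. A match is a string of letters, not a binding site.

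Heart libraries held 2642452 to 9788811 counts each. Bone libraries held 2318223 to 5835064, those of muscle 3439649 to 6397377 and those of skin 3013740 to 5392902. Foxp3 itself was too low to check the depletion, at 0 counts in all heart libraries and at most 28 summed counts in any other group. Csf1r and Lyz2, macrophage genes, had counts in every group, with group means of Csf1r from 153 CPM (counts scaled to the library's total) in depleted bone at day 10 to 1182 CPM in control heart at day 7. All 3 of these genes share sequence with other annotated genes, so their counts are uncertain. In the heart table, ribosomal protein and other genes with many copies set the control day 4 libraries apart. Rps12 averaged 3.42 ± 0.642 CPM in the depleted and 1561 ± 184 CPM in the control arm at day 4 (SD, n = 3 each), and 4.30 and 4.18 CPM in the same arms at day 7. Rn18s-rs5, a ribosomal RNA gene present in the other table, was higher in depleted libraries of bone at day 10 (log2 change 2.12, adjusted p = 0.0226) and of muscle at day 7 (1.76, adjusted p = 0.0281).

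Adjusted p-values of genes are from the quasi-likelihood test of edgeR, adjusted by Benjamini-Hochberg over all genes tested in a comparison, and a gene was called where its value was under 0.05. Of the 24 values of the depletion effect (3 genes, 8 comparisons), 9 were called and all 9 were higher in depleted libraries. The share of all genes called was 11.1% and 3.14% in heart at days 4 and 7, 23.6% and 17.2% in bone at days 7 and 10, 0.155% and 8.59% in muscle at days 4 and 7, and 3.57% and 6.21% in skin at days 4 and 7, and the counts of members and of listed genes are to be read against these. Ccl17 rose in 4 of 8 comparisons, Ccl24 in 3 and Ccl22 in 2. In skin at day 7 and in muscle at day 7, the folds of Ccl17 and Ccl24 ran from 6.03 to 16.4. In heart at day 7, Ccl17 rose 13.5-fold and Ccl22 rose 9.74-fold, from control means of 5.43 and 1.00 CPM. In bone no member was called at either day.

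**Figure D1:**
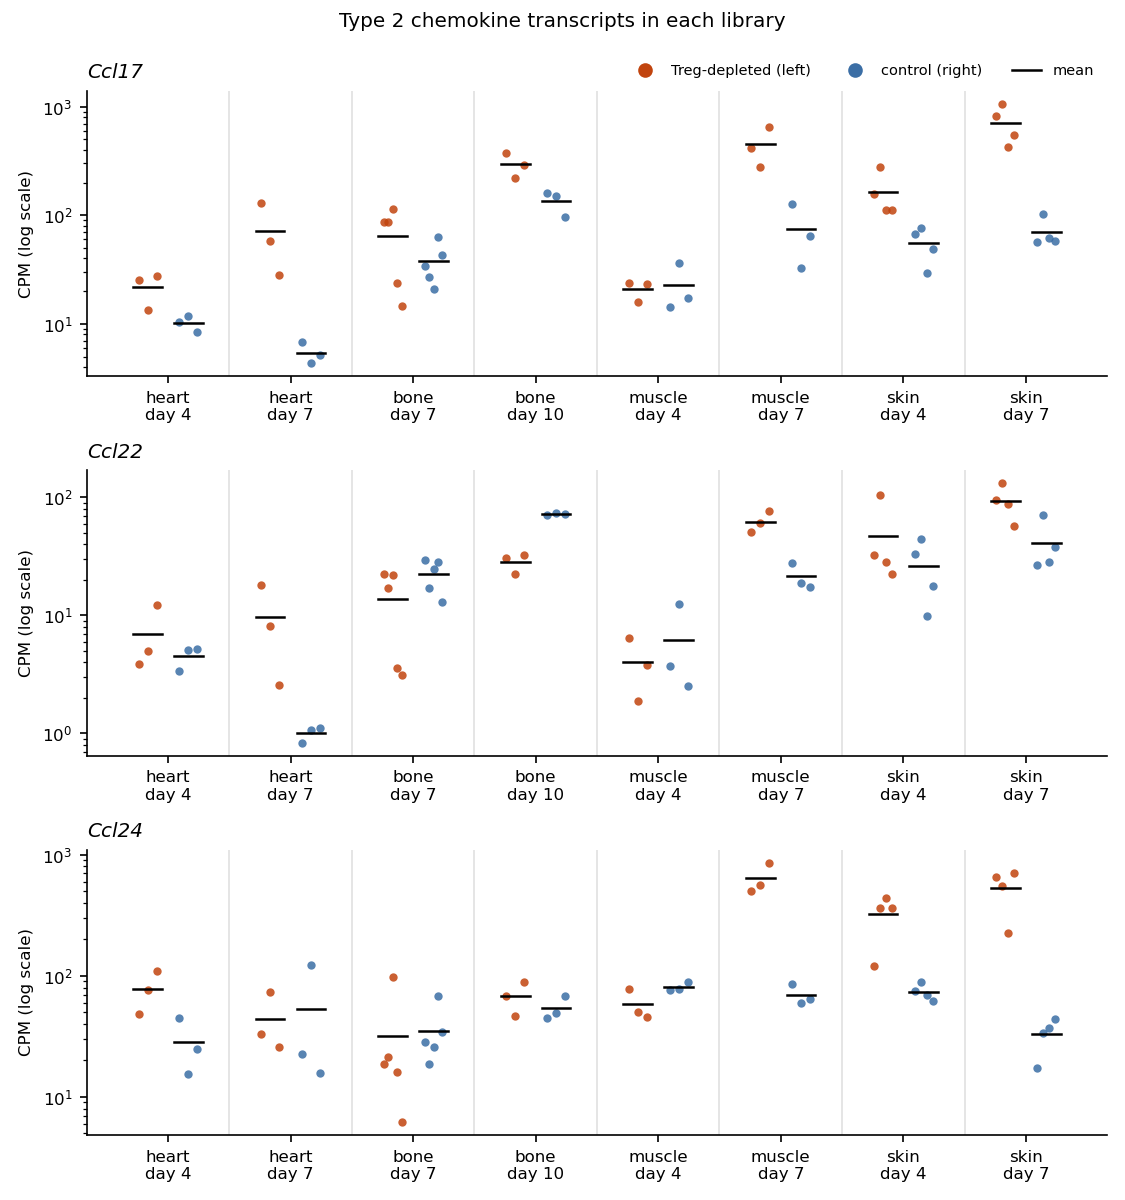
Each point is the level of Ccl17, Ccl22 or Ccl24 in 1 library (CPM, log scale), with depleted libraries left of control libraries in each tissue and day, and bars show group means. Ccl24 of muscle at day 7 sits between 499 and 861 CPM in depleted libraries and between 59.4 and 85.5 CPM in controls, and Ccl22 of bone at day 10 is the 1 set in which every depleted library lies below every control library.

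Muscle at day 7 was the only comparison in which all 3 chemokines were called, where 8.59% of 12907 genes tested were called and 4.67% were called higher. Ccl24 was at 499, 565 and 861 CPM in the depleted libraries, against 85.5, 59.4 and 64.4 CPM in the controls. Ccl17 was at 413, 279 and 657 CPM in the depleted libraries, against 126, 32.9 and 63.8 CPM in the controls. Ccl22 was at 50.8, 60.3 and 76.0 CPM in the depleted libraries, against 27.9, 18.9 and 17.3 CPM in the controls. For each gene the lowest depleted library lay above the highest control, as for 11.0% of all genes tested, and depleted replicate 3 was the highest of all 3 genes. Ccl24 rose 9.17-fold (log2 change 3.20, SE 0.23, adjusted p = 1.88e-07), Ccl17 rose 6.03-fold (2.59, SE 0.51, adjusted p = 0.0106) and Ccl22 rose 2.90-fold (1.53, SE 0.40, adjusted p = 0.0247). The Ccl24 and Ccl17 calls held with each of the 6 libraries left out in turn. The Ccl22 call did not, with adjusted p up to 0.104 without control replicate 2 or 3 or depleted replicate 2 or 3. With Rn18s-rs5 as a covariate the change of Ccl17 was 3.20 (adjusted p = 0.0578) and that of Ccl22 was 1.27 (adjusted p = 0.283), while Ccl24 kept its call at 3.70 (adjusted p = 3.87e-07).

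In the same muscle injury at day 4 none of the 3 chemokines was called, at a time when only 0.155% of genes were. Ccl24 was at 77.9, 50.6 and 45.7 CPM in the depleted libraries, against 77.0, 77.2 and 88.7 CPM in the controls. Ccl17 was at 23.7, 15.8 and 23.0 CPM in the depleted libraries, against 14.3, 36.6 and 17.4 CPM in the controls. Ccl22 was at 6.49, 1.88 and 3.77 CPM in the depleted libraries, against 3.73, 12.4 and 2.52 CPM in the controls. The arms overlapped for each gene, and control replicate 2 was the highest library of both Ccl17 and Ccl22. Log2 changes were -0.48 for Ccl24 (SE 0.22, adjusted p = 0.565), -0.12 for Ccl17 (SE 0.56, adjusted p = 0.974) and -0.58 for Ccl22 (SE 0.53, adjusted p = 0.836). Without control replicate 2 the sign turned for Ccl17 (0.39) and Ccl22 (0.41), and without depleted replicate 2 that of Ccl17 turned as well (0.039).

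The difference between the depletion effects of the 2 muscle days was itself called for Ccl24 (log2 difference 3.68, SE 0.31, adjusted p = 5.55e-06), where 2.41% of genes were. It was 2.71 for Ccl17 (SE 0.75, adjusted p = 0.106) and 2.12 for Ccl22 (SE 0.66, adjusted p = 0.123), neither called with all libraries; without control day 7 replicate 1 that of Ccl17 was (3.35, adjusted p = 0.0268), and without control day 4 replicate 3 that of Ccl22 was (2.52, adjusted p = 0.0427). Within depleted muscle, day 7 over day 4, all 3 rose, by 4.44 for Ccl17 (SE 0.57, adjusted p = 0.000339), 3.93 for Ccl22 (SE 0.47, adjusted p = 3.34e-05) and 3.47 for Ccl24 (SE 0.23, adjusted p = 2.94e-08) on the log2 scale, where 19.4% of genes were called. Within control muscle only Ccl22 was called (1.81, SE 0.45, adjusted p = 0.0234, background 7.24%), and its adjusted p reached 0.112 with 1 of control day 4 replicates 1 and 3 or control day 7 replicate 1 left out. The day change in control muscle was 1.72 for Ccl17 (adjusted p = 0.0889, and 0.0227 without control day 7 replicate 2) and -0.20 for Ccl24 (adjusted p = 0.676).

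In skin, Ccl17 and Ccl24 were higher in depleted libraries at both days, and Ccl22 was called at neither. At day 7 Ccl24 was at 661, 547, 226 and 710 CPM in the depleted libraries, against 17.2, 33.7, 37.3 and 43.6 CPM in the controls. Ccl17 was at 828, 1061, 424 and 549 CPM in the depleted libraries, against 56.8, 103, 62.3 and 57.9 CPM in the controls. Ccl22 was at 94.7, 132, 88.8 and 57.0 CPM in the depleted libraries, against 26.7, 70.6, 28.4 and 37.8 CPM in the controls. The arms were apart for Ccl24 and Ccl17, as in that direction for 4.55% of all genes, whereas control replicate 2 of Ccl22 lay above depleted replicate 4. Ccl24 rose 16.4-fold (log2 change 4.04, SE 0.45, adjusted p = 6.93e-05) and Ccl17 rose 10.3-fold (3.36, SE 0.41, adjusted p = 0.00014), where 6.21% of 12616 genes were called and 2.95% were called higher. Both calls held with each of the 8 libraries left out in turn. The change of Ccl22 was 1.18 (SE 0.54, adjusted p = 0.276).

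At day 4 in skin the changes of Ccl17 and Ccl24 were smaller. Ccl24 was at 121, 364, 438 and 366 CPM in the depleted libraries, against 74.8, 89.5, 68.8 and 61.8 CPM in the controls. Ccl17 was at 156, 279, 111 and 112 CPM in the depleted libraries, against 67.2, 77.0, 29.3 and 49.4 CPM in the controls. Ccl22 was at 32.6, 105, 28.6 and 22.6 CPM in the depleted libraries, against 33.2, 44.6, 9.91 and 17.8 CPM in the controls. The arms did not overlap for Ccl24 and Ccl17, as for 5.53% of all genes in that direction, and replicate 2 held the highest Ccl17 and Ccl22 values of each arm. Ccl24 rose 4.34-fold (log2 change 2.12, SE 0.41, adjusted p = 0.011) and Ccl17 rose 2.94-fold (1.55, SE 0.39, adjusted p = 0.0435), where 3.57% of genes were called and 2.12% were called higher. The change of Ccl22 was 0.81 (SE 0.57, adjusted p = 0.55). The Ccl24 call held with each library left out, but that of Ccl17 was lost without any of 5 of the 8 libraries (control replicate 1, 3 or 4, depleted replicate 1 or 2; adjusted p up to 0.116), with limma-voom (0.0566), in a fit of the 2 groups alone (0.0875) and with no filter on low counts (0.102).

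Between the skin days the test of the difference called no depletion effect different, with 1.81 for Ccl17 (SE 0.54, adjusted p = 0.166), 1.92 for Ccl24 (SE 0.57, adjusted p = 0.164) and 0.36 for Ccl22 (SE 0.78, adjusted p = 0.926), beside a background of 0.848%. Without depleted day 7 replicate 3 the difference of Ccl24 was called (2.18, adjusted p = 0.0432). Within depleted skin Ccl17 was higher at day 7 than at day 4 (2.15, SE 0.39, adjusted p = 0.00815, background 2.62%). Ccl24 and Ccl22 of depleted skin and all 3 genes of control skin did not pass the test between days (background 2.27% in controls). The change of Ccl24 from day 4 to day 7 was 0.77 in depleted skin (SE 0.39, adjusted p = 0.392). In control skin it was -1.16 (SE 0.42, adjusted p = 0.215), from 73.7 ± 11.8 to 33.0 ± 11.3 CPM.

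In heart at day 7 the chemokine pair of CCR4 rose and Ccl24 did not pass the test. Ccl17 was at 129, 58.5 and 28.3 CPM in the depleted libraries FDG1, FDG2 and FDG3, whose column names give no day, against 6.80, 4.33 and 5.15 CPM in the control libraries WT1, WT3 and WT4. Ccl22 was at 18.3, 8.20 and 2.58 CPM in the same depleted libraries, against 0.833, 1.06 and 1.12 CPM in the controls. Every depleted library lay above every control for both genes, as for 12.5% of all genes, and FDG1, FDG2 and FDG3 stood in the same order in each. Ccl17 rose 13.5-fold (log2 change 3.76, SE 0.55, adjusted p = 0.0107) and Ccl22 rose 9.74-fold (3.28, SE 0.65, adjusted p = 0.0203), where 3.14% of 11339 genes were called and 1.58% were called higher. The control level of Ccl22 rested on 27 summed counts in 3 libraries. The Ccl17 call was lost without control WT4 (adjusted p = 0.0607) and in a fit of the 2 groups alone (0.0739), and the Ccl22 call without any 1 of the 3 controls (adjusted p up to 0.0946) and with limma-voom (0.0927).

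Ccl24 of heart at day 7 was at 33.0, 73.2 and 25.8 CPM in the depleted libraries, against 22.8, 122 and 15.8 CPM in the controls. Control WT3 was higher than all others, and the arms overlapped. The log2 change was -0.28 (SE 0.81, adjusted p = 0.894), and without WT3 it was 1.21 (adjusted p = 0.412).

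At day 4 in heart none of the 3 genes was called, where 11.1% of genes were. Ccl17 was at 25.2, 13.4 and 27.5 CPM in the depleted libraries F1, F2 and F3, against 10.4, 11.8 and 8.42 CPM in the controls W1, W3 and W4. Ccl24 was at 48.0, 76.2 and 110 CPM in the depleted libraries, against 44.9, 15.5 and 24.7 CPM in the controls. Ccl22 was at 3.85, 4.98 and 12.1 CPM in the depleted libraries, against 3.39, 5.08 and 5.16 CPM in the controls. The arms did not overlap for Ccl17 and Ccl24, as for 13.6% of all genes in that direction, and they overlapped for Ccl22. Log2 changes were 1.16 for Ccl17 (SE 0.57, adjusted p = 0.252), 1.45 for Ccl24 (SE 0.87, adjusted p = 0.356) and 0.69 for Ccl22 (SE 0.62, adjusted p = 0.546), the last turning to -0.058 without F3. With ribosomal protein, predicted and mitochondrial genes left out of the fit, a setting added once the data had been seen, the 3 changes were 1.16, 1.45 and 0.69. In a fit of the 2 groups alone Ccl17 was called (adjusted p = 0.00626).

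Between the heart days, Ccl17 rose in depleted libraries at day 7 over day 4 (log2 change 1.67, SE 0.50, adjusted p = 0.0348, background 27.3%) and Ccl22 fell by 2.13 in control libraries (SE 0.73, adjusted p = 0.0412, background 31.8%). The first call was lost without F1, F2 or F3 (adjusted p up to 0.0962). The second was lost with any 1 of the 6 libraries left out (adjusted p up to 0.122). The control day 4 libraries, set apart by ribosomal protein genes, enter the second call, its background and the differences given next. The difference between the depletion effects of the 2 days was 2.60 for Ccl17 (SE 0.79, adjusted p = 0.128), 2.59 for Ccl22 (SE 0.91, adjusted p = 0.162) and -1.73 for Ccl24 (SE 1.18, adjusted p = 0.534), beside a background of 4.09%. It was called without FDG1 or FDG3 for Ccl17 and without F3 or FDG3 for Ccl22, and in DESeq2 for both (adjusted p = 0.0165 and 0.0266).

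In bone the receptor-sharing pair had log2 changes of opposite sign at both days, none of them called, although 23.6% of 12709 genes were called at day 7 and 17.2% at day 10. At day 10 Ccl22 was at 30.9, 22.4 and 32.4 CPM in the depleted libraries, against 70.4, 73.5 and 73.0 CPM in the controls. Ccl17 was at 379, 219 and 292 CPM in the depleted libraries, against 161, 150 and 97.2 CPM in the controls. The arms did not overlap for either gene, Ccl22 with depleted libraries below controls (17.5% of genes did so) and Ccl17 with depleted libraries above (17.9%). The log2 change of Ccl22 was -1.33 (SE 0.54, adjusted p = 0.107) and that of Ccl17 was 1.13 (SE 0.62, adjusted p = 0.234). In a fit of the 2 groups alone both were called (adjusted p = 0.000408 for Ccl22 and 0.00247 for Ccl17). Ccl24 was at 67.9, 46.8 and 89.5 CPM in the depleted libraries, against 45.1, 49.6 and 67.9 CPM in the controls, with a change of 0.34 (SE 0.77, adjusted p = 0.802). With Rn18s-rs5 as a covariate, Ccl24 turned to -1.16 (adjusted p = 0.703), and the changes were 0.66 for Ccl17 (adjusted p = 0.817) and -1.79 for Ccl22 (adjusted p = 0.33).

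At day 7 in bone Ccl17 was at 86.5, 87.5, 113, 23.6 and 14.6 CPM in the depleted libraries, against 34.0, 27.0, 21.1, 63.0 and 43.2 CPM in the controls. Ccl22 was at 22.6, 17.2, 22.0, 3.60 and 3.10 CPM in the depleted libraries, against 29.4, 17.2, 24.7, 28.3 and 13.1 CPM in the controls. Depleted replicates 4 and 5 were low for both genes, so the depleted group was wide and overlapped the controls. Log2 changes were 0.79 for Ccl17 (SE 0.50, adjusted p = 0.279) and -0.73 for Ccl22 (SE 0.44, adjusted p = 0.254). Ccl24 was at 18.6, 21.5, 97.9, 16.0 and 6.19 CPM in the depleted libraries, against 28.5, 18.9, 25.7, 67.7 and 34.0 CPM in the controls. Depleted replicate 3 was far above the other depleted libraries. The change of Ccl24 was -0.11 (SE 0.61, adjusted p = 0.917) with all libraries, and without that replicate it was -1.15 and was called (adjusted p = 0.0355). Without control replicate 4 or any other depleted replicate the sign turned positive (0.0066 to 0.28).

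Between the bone days, Ccl17 of depleted libraries was higher at day 10 than at day 7 (log2 change 2.20, SE 0.54, adjusted p = 0.0192, background 12.2%), a call lost without depleted day 10 replicate 1 or 3 (adjusted p up to 0.0712). Ccl24 of depleted libraries was called in the same direction only without day 7 replicate 3 (2.13, adjusted p = 0.00398). In control bone no member was called, where 0.0393% of genes were, and no depletion effect differed between the bone days (adjusted p from 0.774 to 0.899, with 0 of 12709 genes called by edgeR, against 201 by DESeq2).

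**Figure D2:**
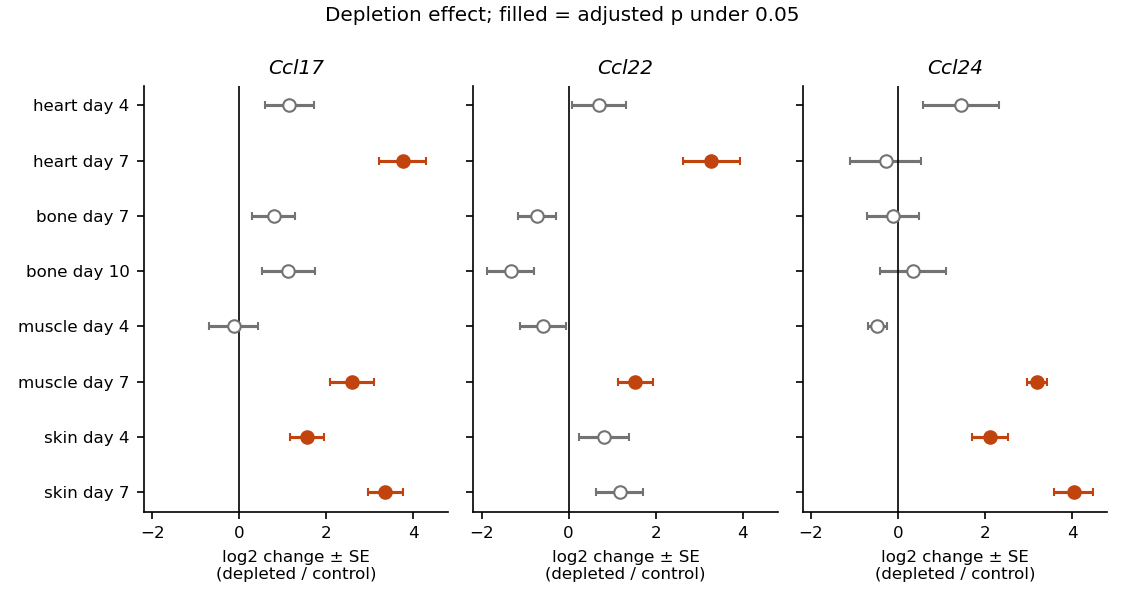
Points are log2 changes of each chemokine in depleted over control libraries with bars of 1 SE in the 8 comparisons, filled where the adjusted p was under 0.05. Ccl22 has changes of -0.73 and -1.33 in bone, against 1.53 in muscle at day 7 and 3.28 in heart at day 7.

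Depletion effects were compared between bone, muscle and skin at day 7 and between muscle and skin at day 4 in a fit of the 44 libraries of those tissues. The effect on Ccl24 was lower in bone than in muscle (log2 difference -3.30, SE 0.73, adjusted p = 0.00331) and lower in bone than in skin (-4.12, SE 0.69, adjusted p = 0.000137). The effect on Ccl17 was lower in bone than in skin (-2.54, SE 0.65, adjusted p = 0.0105). All 3 differences stayed called with each library left out, beside a background of 8.28% of 14340 genes for bone against muscle and 9.37% for bone against skin. The difference of Ccl17 between bone and muscle was -1.79 (SE 0.71, adjusted p = 0.123). For Ccl22 it was -2.25 between bone and muscle (SE 0.76, adjusted p = 0.0607) and -1.89 between bone and skin (SE 0.69, adjusted p = 0.0813), and both were called with 1 or more libraries left out (bone depleted replicate 1 or 3, and skin control replicate 2). No effect was called different between muscle and skin at day 7 or day 4 (adjusted p from 0.179 to 0.921, background 2.78% and 0.265%), which does not show that their effects were alike. For Ccl24 at day 4 the difference was -2.61 with an SE of 0.75 (adjusted p = 0.179). Heart, in a table of its own, was not set against the other tissues.

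In the order of group means over bone, muscle and skin, Ccl17 ran from 715 ± 285 CPM in depleted skin at day 7 (SD, n = 4) down to 20.8 ± 4.39 CPM in depleted muscle at day 4 (n = 3), with depleted muscle at day 7 and depleted bone at day 10 next after the top. Ccl22 ran from 93.1 ± 30.6 CPM in depleted skin at day 7 to 4.05 ± 2.32 CPM in depleted muscle at day 4, with control bone at day 10 in the second place. For both genes every group overlapped its neighbour in the order. Ccl24 had 1 gap: depleted muscle at day 7 (641 ± 193 CPM), depleted skin at day 7 (536 ± 218 CPM) and depleted skin at day 4 (322 ± 139 CPM) stood above control muscle at day 4 (80.9 ± 6.68 CPM) with no overlap, and the other 9 groups had means of 32.0 to 80.9 CPM. Among controls, 1 of 12 differences between tissues was called, beside backgrounds of 13.6% for bone against muscle, 25.6% for bone against skin and 11.9% for muscle against skin at day 7 and 12.3% at day 4. Ccl22 was lower in control muscle than in control skin at day 4 (6.24 ± 5.41 and 26.4 ± 15.5 CPM, n = 3 and 4; log2 difference -2.09, SE 0.64, adjusted p = 0.0267), a call lost without muscle replicate 1 or 3 or skin replicate 1 or 2 (adjusted p up to 0.151).

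The ratio of Ccl17 counts to Ccl22 counts within a library does not depend on the scaling, and its use was chosen after the counts were seen. Its size is no comparison of the abundance of the 2 transcripts. In bone the ratio was 3.83 to 6.57 in the depleted libraries against 0.855 to 3.30 in the controls at day 7, and 9.03 to 12.3 against 1.33 to 2.29 at day 10. In skin at day 7 it was 4.77 to 9.62 in the depleted libraries against 1.45 to 2.20 in the controls. In muscle at day 7 it was 4.63 to 8.65 in the depleted libraries against 1.74 to 4.53 in the controls. In these 4 comparisons every depleted library had a higher ratio than every control. How often ratios of other gene pairs part in this way was not computed, so these 4 splits have no background share. Of single genes, 17.9% lay apart in the higher direction in bone at day 10, 11.0% in muscle at day 7 and 4.55% in skin at day 7. The geometric mean of the ratio was 3.07-fold higher in depleted bone at day 7 (exact two-sided permutation test, p = 0.00794, 0.0635 adjusted over 8 comparisons), 5.58-fold at day 10 (exact p = 0.1, the smallest that 3 against 3 allows), 4.20-fold in skin at day 7 (exact p = 0.0286, adjusted 0.114) and 2.24-fold in muscle at day 7 (exact p = 0.1). In heart at days 4 and 7 (1.51-fold and 1.53-fold), muscle at day 4 (1.34-fold) and skin at day 4 (1.71-fold) the arms overlapped, with exact p from 0.0857 to 0.5. No comparison could have passed after adjustment: the smallest exact p is 0.1 with 3 against 3 libraries, 0.0286 with 4 against 4 and 0.00794 with 5 against 5, and the lowest adjusted value was 0.0635.

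**Figure D3:**
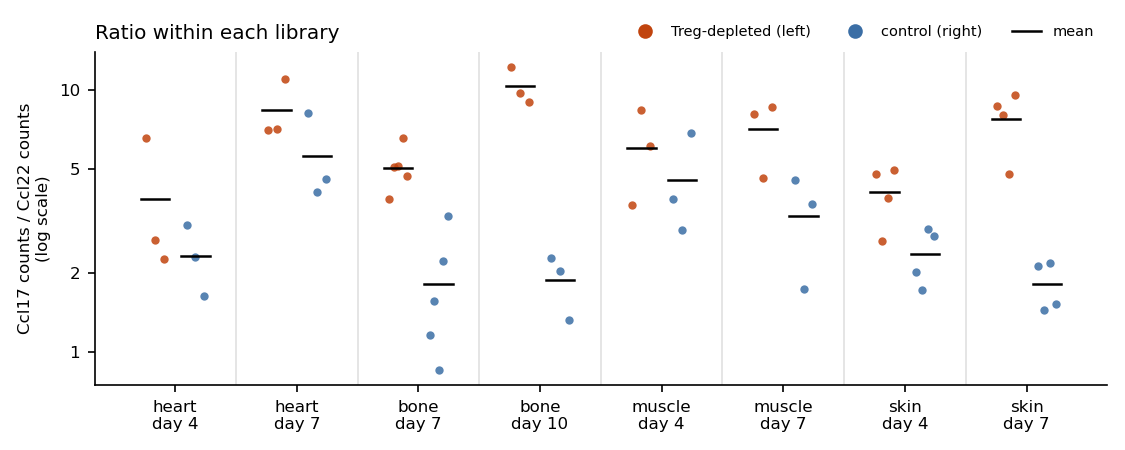
Points are the number of Ccl17 counts per Ccl22 count in each library (log scale), depleted left of control, with bars at the group means. Depleted libraries of bone at day 10 lie between 9.03 and 12.3 and their controls between 1.33 and 2.29.

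Of the receptors, Ccr4 had at most 2 summed counts in any group and was not tested. Ccr3 moved in opposite directions in the 2 tissues with the large Ccl24 changes. In muscle at day 7 it was at 73.4 ± 38.6 CPM after depletion and 6.16 ± 3.80 CPM in controls (log2 change 3.50, SE 0.45, adjusted p = 0.000198), and in skin at day 7 at 1.71 ± 1.07 CPM after depletion and 38.2 ± 13.5 CPM in controls (-4.44, SE 0.86, adjusted p = 0.0062). The difference between those 2 effects was 7.97 (SE 0.87, adjusted p = 6.16e-08). The list of eosinophil markers holds Ccr3 itself. Of its other members, all 4 tested rose in muscle at day 7 (8.59% of all genes called). In skin at day 7, of 5 tested, 4 fell and 1, Ear1, rose (6.21%). In heart at day 7, where Ccl24 was not called, the other 3 tested rose (3.14%). Ear1 and Ear6 share sequence with related genes and are uncertain. The summed level of the list, Ccr3 included, was 386 to 659 CPM in depleted muscle, against 30.2 to 52.7 CPM in its controls, and 44.5 to 86.6 CPM in depleted skin, against 81.6 to 147 CPM in its controls. Epx, the eosinophil peroxidase gene, had 14 summed counts in depleted and 0 in control muscle. In skin at day 4, where Ccl24 was called, none of 6 eosinophil markers tested, Ccr3 included, was called (3.57% of all genes called). None was called in bone at either day (23.6% and 17.2%), or in heart (11.1%) or muscle (0.155%) at day 4. The part of eosinophils in the Ccl24 levels was not tested, and in these bulk samples more cells of a type and more RNA per cell cannot be told apart.

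Of the cytokines, Il4, the founding type 2 cytokine, rose in muscle at day 7 (31.0 CPM after depletion and 2.85 CPM in controls, log2 change 3.43, adjusted p = 0.00055), in skin at day 4 (87.6 and 4.62 CPM, 4.22, adjusted p = 0.00953) and in bone at day 7 (3.76 and 0.221 CPM, 4.15, adjusted p = 0.000384) and day 10 (12.5 and 0.517 CPM, 4.45, adjusted p = 0.000873). In skin at day 7 Il4 was at 41.5 CPM after depletion and 26.0 CPM in controls (0.66, adjusted p = 0.664). Il13 was tested in skin alone, where it was at 40.7 CPM after depletion and 0.217 CPM in controls at day 4 (7.43, adjusted p = 0.00189) and at 15.7 and 2.29 CPM at day 7 (2.76, adjusted p = 0.0549). Csf2, which encodes GM-CSF, rose in skin at day 4 (6.14, adjusted p = 0.000314) and day 7 (2.29, adjusted p = 0.0449), and it shares sequence with another annotated gene. The control means of Il13 in skin at day 4 (0.217 CPM) and of Il4 in bone (0.221 and 0.517 CPM) were near the floor. The sizes of those changes are therefore uncertain. In heart, Il4 and Il13 were too low to test. Basophil and mast cell markers, which mark cells known to make IL-4, also rose in several comparisons. In bone 7 of 9 tested rose at day 7 (23.6% of all genes called), and at day 10, 7 of 9 rose and 1 fell (17.2%). In skin 6 of 9 rose at day 4 (3.57%) and 5 of 9 at day 7 (6.21%). In muscle at day 7, 2 of 2 rose (8.59%). Neither of the 2 tested was called in heart at either day or in muscle at day 4. The part of these cells was not tested.

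Of the 20 receptor and signalling genes for IL-4, IL-13 and GM-CSF, 5 rose in muscle at day 7, 4 in skin at day 4 and 3 in skin at day 7, with none lower (8.59%, 3.57% and 6.21% of all genes were called). In bone 2 rose and 6 fell at day 7 (23.6% of all genes called) and 6 fell at day 10 (17.2%). In heart 3 rose and 2 fell at day 4 (11.1%), and 1 rose at day 7 (3.14%). Socs1, a feedback inhibitor of cytokine receptors, rose in muscle at day 7 (1.69, adjusted p = 0.00726) and in skin at day 4 (1.53, adjusted p = 2.77e-05) and day 7 (1.16, adjusted p = 0.000211). In bone Il4ra, the receptor chain shared by IL-4 and IL-13, fell by 0.60 at day 7 (adjusted p = 0.00565) and by 1.05 at day 10 (adjusted p = 0.00157), and Stat6 fell by 0.79 at day 10 (adjusted p = 0.0209). Il4ra has copies elsewhere in the annotation, so its counts are uncertain. Neither gene was called in muscle, skin or heart. Irf4, a transcription factor of alternative macrophage activation, was called in skin at day 7 alone (1.56, adjusted p = 0.00803).

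Of 18 alternative activation genes, 12 rose and none fell in muscle at day 7 (median log2 change 1.98, against -0.01 for all genes tested), and 9 rose and 2 fell in skin at day 7 (median 0.89, against 0.00). In skin at day 4, 4 of 18 rose (3.57% of all genes called), in heart 3 of 17 at day 4 (11.1%) and 4 of 17 at day 7 (3.14%), and in muscle at day 4 none (0.155%). In bone 2 rose and 4 fell of 17 at day 7 (23.6%), and 4 rose and 4 fell at day 10 (17.2%). The heart day 4 and bone day 7 counts are not far from those backgrounds. Pdcd1lg2, which encodes the checkpoint ligand PD-L2, rose in the 4 comparisons in which Ccl17 was called: heart at day 7 (9.50 CPM after depletion and 0.854 CPM in controls, 3.47, adjusted p = 0.0238), muscle at day 7 (57.1 and 5.29 CPM, 3.44, adjusted p = 0.000217), skin at day 4 (20.1 and 5.17 CPM, 1.97, adjusted p = 0.0026) and skin at day 7 (54.2 and 4.67 CPM, 3.48, adjusted p = 1.55e-06). Arg1, which encodes arginase, rose in muscle at day 7 (773 and 38.8 CPM, 4.30, adjusted p = 0.000789) and was called in no other comparison. Mrc1, a mannose receptor, rose in skin at day 7 (0.98, adjusted p = 0.0199). Chil3, Retnla and Mgl2 share sequence with other genes and are uncertain; Chil3 rose in 6 comparisons, both bone days among them.

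Of the 18 other CC chemokines on the list, 4 of 14 tested rose and 1 fell in muscle at day 7 (8.59% of all genes called). In skin at day 7, 3 of 13 rose (6.21%). Ccl11, which encodes eotaxin and binds CCR3 as CCL24 does, rose in muscle at day 7 (16.8 ± 2.56 CPM against 1.32 ± 0.251 CPM in controls; 3.67, SE 0.36, adjusted p = 5.27e-06) and had a change of 1.32 in skin at day 7 (adjusted p = 0.139). Ccl8 rose in muscle (0.97, adjusted p = 0.00578) and skin (1.83, adjusted p = 0.0254) at day 7. In bone at day 7, where 23.6% of all genes were called, 5 of 13 tested CC chemokines fell and none rose, among them Ccl2 (-1.58, adjusted p = 0.000144) and Ccl7 (-2.01, adjusted p = 0.000187), which attract monocytes.

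**Figure D4:**
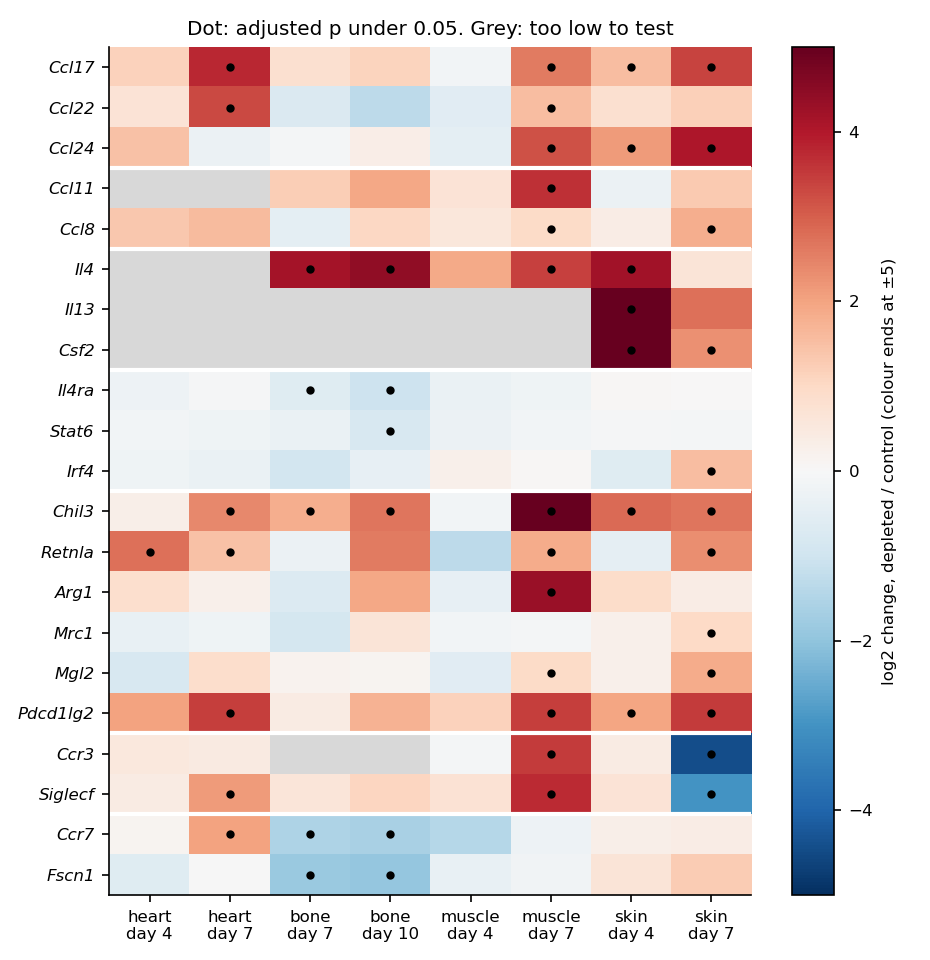
Colours show log2 changes in depleted over control libraries for the 3 chemokines, other CC chemokines, cytokines, receptor and signalling genes, alternative activation genes, eosinophil genes and dendritic cell genes in the 8 comparisons, with a dot where the adjusted p was under 0.05 and grey where a gene was too low to test. Pdcd1lg2 has dots in the same columns as Ccl17, and Ccr3 is at 3.50 in muscle and -4.44 in skin at day 7.

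Dendritic cell markers were lower in depleted bone, where Ccl22 was not called. Their list holds Ccr7, Fscn1, Cacnb3 and Il4i1, which are among the genes most like Ccl22 in these same libraries. The list was chosen with earlier results of these data known, so it is not independent of Ccl22. In bone at day 7, 8 of 14 tested fell and none rose (23.6% of all genes were called), and at day 10, 5 of 14 fell and none rose (17.2%). Ccr7 fell by 1.56 at day 7 (6.18 ± 4.20 CPM after depletion and 18.2 ± 4.61 CPM in controls, adjusted p = 0.00493) and by 1.63 at day 10 (15.6 ± 4.43 and 48.5 ± 10.9 CPM, adjusted p = 0.0197). The summed level of the list was 83.0 to 390 CPM in depleted and 341 to 464 CPM in control bone at day 7, and 262 to 315 CPM and 547 to 643 CPM at day 10. In heart at day 7, where Ccl22 rose, Ccr7 rose too (7.80 ± 4.37 and 2.04 ± 1.12 CPM, log2 change 2.02, adjusted p = 0.0306). Of 13 dendritic cell markers tested there 3 rose and 1 fell (3.14% of all genes called). Their sums were 277 to 1611 CPM after depletion and 239 to 268 CPM in controls. In muscle at day 7, where Ccl22 also rose, Ccr7 was at 32.0 ± 7.18 CPM after depletion and 37.7 ± 2.93 CPM in controls (-0.24, adjusted p = 0.648). Of 15 dendritic cell markers tested there 2 rose and 1 fell (8.59% of all genes called). Their sums were 881 to 1177 CPM after depletion and 765 to 947 CPM in controls. Summed neutrophil markers were higher too in depleted bone at day 10 (16168 to 30212 CPM against 4390 to 7954 CPM) and muscle at day 7 (1081 to 2855 CPM against 151 to 183 CPM). In bone at day 7, 5 of 10 tested rose but the sums overlapped (7954 to 26210 CPM against 5012 to 12184 CPM). In heart 3 of 9 rose at day 7 (386 to 690 CPM against 186 to 277 CPM) and 3 of 9 fell at day 4. In skin 1 of 9 rose at day 4 (538 to 719 CPM against 258 to 441 CPM). At day 7 in skin 2 of 9 rose and 1 fell, with overlapping sums (272 to 1585 CPM against 737 to 1409 CPM). Of the markers of resident macrophages, 9 of 14 fell in bone at day 7 (23.6% of all genes called) and 5 of 14 at day 10 (17.2%). In muscle at day 7, 10 of 15 fell and 1 rose (8.59%). In heart 5 of 13 fell at day 4 (11.1%) and 5 of 13 at day 7 (3.14%). In skin 6 of 15 fell at day 4 (3.57%), and at day 7, 2 of 15 rose and 1 fell (6.21%). Of 10 monocyte and macrophage markers, Csf1r and Lyz2 included, 6 fell and 1 rose in bone at day 7 (23.6%). Their sums were 10275 to 14701 CPM after depletion and 12860 to 23956.5 CPM in controls. At day 10, 4 fell and 2 rose (17.2%), with sums of 9113 to 11522 CPM and 12848 to 14233 CPM. Elsewhere, 2 rose in heart at day 4 and none was called at day 7. In muscle none was called at day 4, and 1 rose and 1 fell at day 7. In skin 1 rose and 1 fell at day 4, and 2 rose and 1 fell at day 7. The part of these cells in the chemokine levels was not tested.

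By log2 CPM over the 44 bone, muscle and skin libraries, which share a table and differ in tissue, day and arm, the gene most like Ccl22 was Ccr7 (Pearson r = 0.92, and 0.91 for deviations from group means), followed by Fscn1 (0.88), which encodes fascin, then Cacnb3 (0.86), Ramp3 (0.86) and Il4i1 (0.84). The genes most like Ccl17 were AA467197 (0.88), Il4i1 (0.88), Slc7a2 (0.84), Pdcd1lg2 (0.83) and Socs2 (0.83), and for deviations from group means these were between 0.48 and 0.68. The genes most like Ccl24 were Pdcd1lg2 (0.88), F7 (0.87), which encodes a coagulation factor, Vdr (0.86), the vitamin D receptor, Cd274 (0.84), which encodes PD-L1, and Clec7a (0.83), which encodes Dectin-1. For deviations from group means those of Ccl24 were between 0.59 and 0.73. In the 12 heart libraries, r with the same genes was 0.34 to 0.83 for Ccl22 (Cacnb3 had no value), 0.33 to 0.90 for Ccl17 and 0.31 to 0.61 for Ccl24. Il4i1 has copies and is uncertain. Between members, r was 0.83 for Ccl17 and Ccl22 (0.80 for deviations from group means), 0.71 for Ccl17 and Ccl24 (0.56) and 0.52 for Ccl22 and Ccl24 (0.43). In the 12 heart libraries it was 0.82, 0.16 and 0.24 for the same 3 pairs.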

How the data were processed

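Monocytes and macrophages of injured tissue were profiled by RNA-seq with oligo-dT primed libraries that carry molecular identifiers, per the labels' protocols, and their collapsing before counting is not given in the sources used here. Per the table, the authors deposited counts per gene for heart, and estimated counts per gene for bone, muscle and skin. The submitters' processing notes name GRCm38, GRCm39, STAR, Salmon, featureCounts and limma, with no role. Estimated counts were rounded to whole numbers (19.4% of non-zero values lay over 0.01 from one). The groups of a tissue shared 1 fit in edgeR 4.0.16 (R 4.3.3; TMM scaling, filterByExpr, robust glmQLFit and glmQLFTest, Benjamini-Hochberg), with a joint fit of the 3 tissues of the second table for differences between tissues; CPM were TMM-scaled within each table. SEs came from the fold change and its F statistic. The procedure was tested on simulated data. The alternatives were RLE size factors, DESeq2 1.42.0, limma-voom (limma 3.58.1), no low-count filter, the compared groups alone, a replicate block and Rn18s-rs5 as covariate. Leaving out each library and, in heart, a fit without ribosomal protein, predicted and mitochondrial genes were run as well. Heart columns could be tied to a group but not to a replicate number, and are called by the short form in their names (F1, WT1). The 6 heart columns put at day 7 name no day: the other 6 name day 4, and the labels give only days 4 and 7. Replicate numbers were not treated as pairing libraries in the main fits. Named genes are the 3 members, the 5 most alike each (mean over 5 CPM) and genes of lists; members and lists were chosen with earlier results of these data known. Genes sharing at least 0.05 of their 31-base words with others are called uncertain.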

Additional observations from a re-analysis of the deposited data

Results flagged for a closer look

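Groups of 4 or 5 libraries were searched for a library far from the others, by its gap to the next over the range. The cut-off flags about 1 in 20 sets of independent, normally distributed values, which CPM and ratios from the same libraries need not be. By it 3 of 24 sets of values were flagged. They were Ccl17 in control skin at day 7, with replicate 2 at 103 CPM and the others at 56.8 to 62.3 CPM, Ccl22 in depleted skin at day 4, with replicate 2 at 105 CPM and the others at 22.6 to 32.6 CPM, and Ccl24 in depleted bone at day 7, with replicate 3 at 97.9 CPM and the others at 6.19 to 21.5 CPM.

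Several effects differed between groups by the test of the difference itself. The depletion effect on Ccl24 was larger at day 7 than at day 4 in muscle (log2 difference 3.68). It was lower in bone than in muscle (-3.30) and than in skin (-4.12) at day 7, and that on Ccl17 was lower in bone than in skin (-2.54). For Ccr3, which encodes the receptor of CCL24, the effect differed at day 7 between bone and muscle (-4.36), between bone and skin (3.60) and between muscle and skin (7.97), and between the muscle days (3.58). The change of Ccr3 was positive in muscle and negative in skin.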

How the results depend on the processing

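The calls of Ccl24 in muscle at day 7 and in skin at both days, and of Ccl17 in skin at day 7, held under every alternative run. Values are log2 changes, with adjusted p where given, and causes were not tested. With no low-count filter, calls were gained for Ccl17 for the control difference bone minus muscle (-0.99), bone minus skin (-0.92) and muscle minus skin at day 4 (-1.24), and for the depletion effect bone minus muscle at day 7 (-1.78) and muscle minus skin at day 4 (-1.75). They were gained for Ccl22 for control bone minus skin (-0.88) and muscle minus skin at day 7 (-0.96), the depletion effect bone minus muscle (-2.24), bone minus skin (-1.84) and muscle minus skin at day 4 (-1.47), and the day difference of the effect in heart (2.55) and muscle (2.12). They were gained for Ccl24 for control bone minus muscle (-1.01), muscle minus skin at day 7 (1.07) and the effect muscle minus skin at day 4 (-2.67). The same setting lost Ccl17 in depleted heart between days (1.67) and in skin at day 4 (1.57). DESeq2 gained Ccl17 between days in control muscle (1.73) and for the day difference of the effect in heart (2.60) and muscle (2.74), and Ccl22 for bone minus muscle (-2.27) and the heart day difference (2.62), and lost Ccl22 in muscle at day 7 (1.56). The compared groups alone gained Ccl17 in bone at day 10 (1.13) and heart at day 4 (1.16) and Ccl22 in bone at day 10 (-1.33), and lost Ccl17 in heart at day 7 (3.76) and skin at day 4 (1.55). Limma-voom lost Ccl17 in skin at day 4 (1.55) and Ccl22 in heart at day 7 (3.04), and turned Ccl24 in heart at day 7 (0.15). Rn18s-rs5 as covariate lost Ccl17 (3.20) and Ccl22 (1.27) in muscle at day 7 and turned Ccl24 in bone at day 10 (-1.16). Over 22 pairs of equal replicate number, correlations of deviations were -0.12 to 0.14, with 2 over 0.1. Replicate numbers were not used as pairs, though low correlations cannot exclude a batch shared by libraries of equal number. The replicate block gained Ccl22 in bone at day 10 (-1.35) and skin at day 7 (1.25).

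Ranges with each library left out were, for Ccl17, 1.95 to 2.50 in depleted bone between days, 1.08 to 2.23 in control muscle and 0.95 to 2.03 in depleted heart between days, 1.87 to 2.96 and 2.20 to 3.35 for the day difference in heart and muscle, 3.03 to 4.12 in heart at day 7, -0.36 to 0.39 in muscle at day 4, 1.19 to 1.75 in skin at day 4 and -0.56 to 0.44 for control muscle minus skin at day 7. For Ccl22 they were -0.043 to 0.34 and -3.07 to -1.69 for control bone minus muscle and muscle minus skin at day 4, -2.32 to -2.02, 1.40 to 2.80 and -0.37 to 1.21 between days in control heart, control muscle and depleted heart, -2.49 to -1.98, -2.30 to -1.61 and -0.066 to 0.62 for the effect bone minus muscle, bone minus skin and muscle minus skin at day 7, 1.76 to 3.34, 1.13 to 2.63 and -0.011 to 1.08 for the day difference in heart, muscle and skin, -0.058 to 1.02 and 2.44 to 3.69 in heart at days 4 and 7, and -1.08 to 0.41 and 1.37 to 1.78 in muscle at days 4 and 7. For Ccl24 they were -0.33 to 0.25 for control bone minus skin, 0.85 to 2.13 and -0.58 to 1.42 between days in depleted bone and control heart, 1.65 to 2.18 for the skin day difference, -1.15 to 0.28 in bone at day 7 and -0.87 to 1.21 in heart at day 7.

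Counts of genes called moved by over 1.5 times with DESeq2 and with no filter for the bone day difference of the effect (0, against 201 and 166), the skin one (107, against 264 and 319), the muscle one (311, against 490 and 583), muscle at day 4 (20, against 93 and 190) and heart at day 7 (356, against 618 and 754), and with Rn18s-rs5 as covariate in bone at day 7 (2994, against 1166) and day 10 (2182, against 78) and muscle at day 7 (1109, against 419). With 1 library left out they ranged from 124 to 362 in heart at day 7 (356 with all), 686 to 1252 at day 4 (1259), 1181 to 2010 in bone at day 10 (2182), 2 to 25 in muscle at day 4 (20), 265 to 451 in skin at day 4 (450) and 514 to 965 at day 7 (784), so the shares of genes called move with single libraries. Ccl22 in control heart at day 7 is limited by depth, at 27 summed counts.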
